A study of Mus musculus with 9 samples.

Results

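The transcription factors that drive or oppose the epithelial-mesenchymal transition were followed in mouse breast carcinoma cells depleted of Med4. The set was taken by gene symbol and holds 10 of the 55335 gene identifiers counted: Snai1, Snai2, Twist1, Twist2, Zeb1, Zeb2, Prrx1, Ovol1, Grhl2 and Tcf4. All 10 were found in the count files and all 10 passed the filter on low counts. The epithelial-mesenchymal transition is the programme by which epithelial cells loosen their junctions and take on the motile habit of mesenchymal cells. Zinc-finger factors of the Snail and Zeb families and basic helix-loop-helix factors of the Twist family drive it in large part by repressing E-cadherin and other junction genes, and Ovol and Grainyhead-like factors hold the epithelial state against them. Carcinoma cells can rest anywhere between these states, and the balance bears on invasion and on growth at distant sites.

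The cells were D2A1-d, a murine breast carcinoma line kept in serum-containing medium with antibiotics and labelled untreated. The groups were cells transduced with the Med4 hairpin shMed4 #4, cells transduced with the Med4 hairpin shMed4 #1, both labelled as Med4 knockdown, and cells transduced with a non-targeting control (NTC), labelled WT. Each group had 3 libraries of total RNA, numbered as biological replicates. Med4 is part of Mediator, the complex through which DNA-bound factors engage RNA polymerase II. The labels do not say whether replicates came from separate transductions, and p-values speak only for the spread among these libraries, which may be technical. In bulk RNA, fewer cells that express a gene and less RNA per cell cannot be told apart.

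Libraries held 7572114 to 8582235 reads assigned to genes, and 14335 genes were tested. Med4 was counted with 66, 60 and 50 reads in shMed4 #4 libraries, 40, 35 and 38 reads in shMed4 #1 libraries, and 236, 216 and 204 reads in NTC libraries. The knockdown groups lay wholly below NTC, with log2 fold changes of -1.92 for shMed4 #4 and -2.59 for shMed4 #1. Of the 13 mammary carcinoma markers checked, Cdh1, Elf5 and Pgr had no read in any of the 9 libraries and Epcam had 1 read in all. The epithelial markers Cdh1 and Epcam were thus absent or nearly so from cells labelled as carcinoma. The luminal keratins Krt8 and Krt18 were present. Summed over the list, mammary markers came to between 218 and 243 CPM (read counts scaled to library size with TMM factors) in shMed4 #4 libraries, between 127 and 150 CPM in shMed4 #1 libraries, and between 64.3 and 72.8 CPM in NTC libraries. The largest terms in every group were Krt18, Krt8 and Erbb2, and 9 of the 13 markers were too low to be tested. Krt18 and Krt8 were higher in both knockdown groups than in NTC. Erbb2 was not, with means of 39.6 CPM in shMed4 #4 cells, 35.2 CPM in shMed4 #1 cells and 43.2 CPM in NTC cells.

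The factors did not move together. Prrx1, Ovol1 and Grhl2 rose with both hairpins, and Twist2 fell with both. Snai1, Snai2, Zeb2 and Tcf4 passed the test with neither. Twist1 rose and Zeb1 fell with shMed4 #4, by small amounts, and neither passed with shMed4 #1. With shMed4 #4, 4 of the 10 factors rose, against 27.8% of all tested genes, and 2 fell, against 27.3% of all tested genes. With shMed4 #1, 3 rose, against 21.8% of all tested genes, and 1 fell, against 19.8%. A gene counts as changed here at a Benjamini-Hochberg adjusted p under 0.05 in the quasi-likelihood test of edgeR over all tested genes. The number of changed factors was thus near what the genes at large showed. Both comparisons use the same NTC libraries, so they are not independent of each other.

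**Figure D1:**
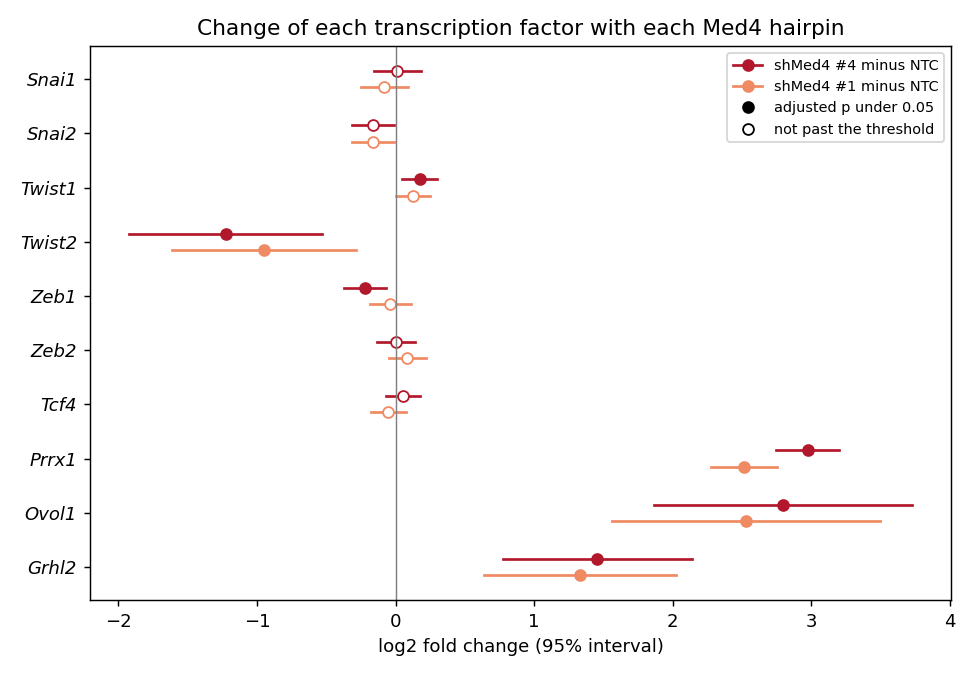
Log2 fold change (x axis) of each factor (rows) with shMed4 #4 and with shMed4 #1 relative to NTC; points are edgeR estimates, lines their 95% intervals, and filled points passed an adjusted p of 0.05. Prrx1 and Ovol1 lie between 2.52 and 2.98, Grhl2 at 1.46 and 1.33, Twist2 below 0, and the other factors within 0.22 of 0.

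Per length of transcript, Twist1, Snai1 and Snai2 stood highest in every group. In RPKM (CPM per kilobase of merged exons), Twist1 had means of 66.8 ± 3.5 in shMed4 #4 cells, 64.6 ± 5.0 in shMed4 #1 cells and 59.2 ± 2.6 in NTC cells (SD, n = 3 each). Snai1 followed at 33.7 ± 4.2 RPKM in shMed4 #4 cells, 31.5 ± 1.4 RPKM in shMed4 #1 cells and 33.3 ± 4.2 RPKM in NTC cells. Snai2 came next at 21.5 ± 0.91 RPKM in shMed4 #4 cells, 21.6 ± 0.90 RPKM in shMed4 #1 cells and 24.1 ± 2.1 RPKM in NTC cells. These 3 levels did not overlap one another within any group. Below them in NTC cells came Zeb1 at 4.30 ± 0.12 RPKM, Tcf4 at 3.49 ± 0.19 RPKM and Zeb2 at 3.38 ± 0.28 RPKM, of which Tcf4 and Zeb2 overlapped. Twist2 at 0.887 ± 0.26 RPKM and Prrx1 at 0.770 ± 0.22 RPKM overlapped in NTC cells, as did Grhl2 at 0.111 ± 0.020 RPKM and Ovol1 at 0.0968 ± 0.057 RPKM at the bottom.

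Prrx1 changed its place in this order. Its RPKM was 6.04 ± 0.52 in shMed4 #4 cells and 4.39 ± 0.22 in shMed4 #1 cells, against 0.770 ± 0.22 in NTC cells. It thus stood at rank 4 in both knockdown groups and at rank 8 in NTC. In shMed4 #4 cells it lay above Zeb1, Tcf4 and Zeb2 without overlap, while in shMed4 #1 cells its range overlapped that of Zeb1. Twist2 in turn fell below Ovol1 by its mean in both knockdown groups, with overlapping libraries. Merged exon lengths count every annotated isoform, so the level of a gene with long alternative ends, such as Tcf4, Zeb2 or Prrx1, is understated on this scale.

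**Figure D2:**
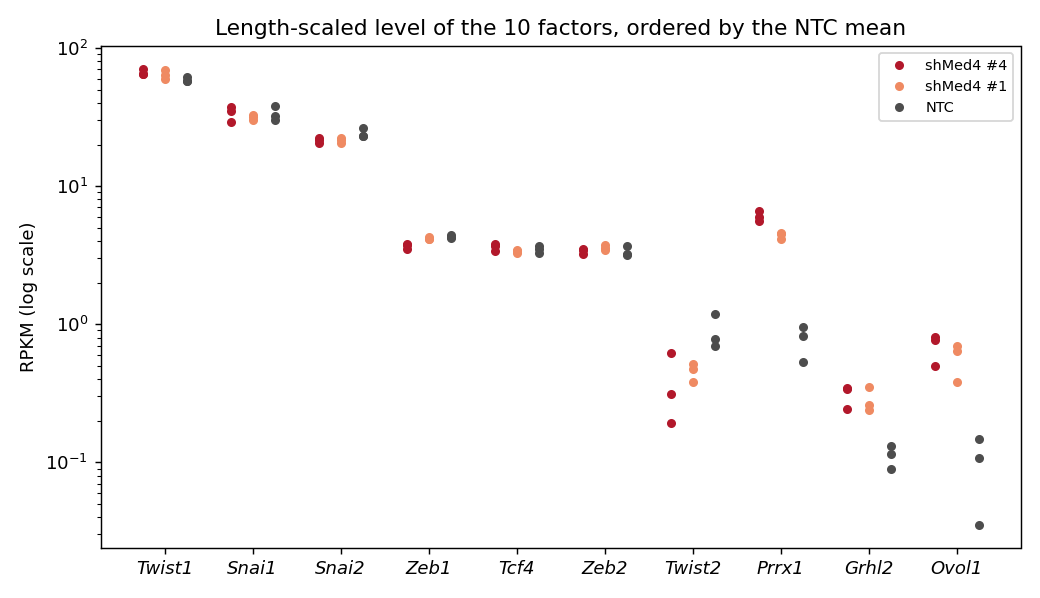
RPKM on a log axis for the 10 factors, ordered by their NTC mean, with 1 point per library. Twist1, Snai1 and Snai2 lie above 20 RPKM in all 9 libraries, and Prrx1 is near 0.77 RPKM in NTC but between 4.14 and 6.60 RPKM in the 6 knockdown libraries.

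Among the transition drivers, 2 passed the test with both hairpins, Prrx1 up and, from few reads, Twist2 down. Their promoters are shown with those of Snai1 and Twist1, the abundant drivers that moved little or not at all. Windows run from 250 bases before to 50 bases after a RefSeq transcription start on GRCm38.p6. They are Prrx1 at chr1:163313601-163313900 on the minus strand, Twist2 at chr1:91801211-91801510, Snai1 at chr2:167537945-167538244 and Twist1 at chr12:33957421-33957720, all 3 on the plus strand. Each is written 5′ to 3′ on the strand of the gene, with the Snail and Zeb E-box, CAGGTG or its complement CACCTG, in capitals.
Prrx1: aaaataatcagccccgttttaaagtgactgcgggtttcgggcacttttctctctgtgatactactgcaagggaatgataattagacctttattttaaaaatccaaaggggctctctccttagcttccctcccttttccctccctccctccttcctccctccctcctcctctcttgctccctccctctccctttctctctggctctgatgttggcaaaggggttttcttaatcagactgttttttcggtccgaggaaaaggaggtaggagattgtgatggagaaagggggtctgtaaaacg
Twist2: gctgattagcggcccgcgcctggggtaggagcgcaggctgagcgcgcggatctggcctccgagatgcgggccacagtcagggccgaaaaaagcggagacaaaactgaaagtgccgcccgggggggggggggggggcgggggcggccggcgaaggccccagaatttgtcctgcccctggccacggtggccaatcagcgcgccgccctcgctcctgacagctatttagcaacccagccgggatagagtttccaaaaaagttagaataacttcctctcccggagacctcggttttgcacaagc
Snai1: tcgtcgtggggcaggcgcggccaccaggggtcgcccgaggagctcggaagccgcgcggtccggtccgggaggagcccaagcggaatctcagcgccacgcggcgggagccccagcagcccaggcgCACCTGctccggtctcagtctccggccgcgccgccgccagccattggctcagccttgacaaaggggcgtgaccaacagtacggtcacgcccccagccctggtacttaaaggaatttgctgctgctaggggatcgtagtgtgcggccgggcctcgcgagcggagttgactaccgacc
Twist1: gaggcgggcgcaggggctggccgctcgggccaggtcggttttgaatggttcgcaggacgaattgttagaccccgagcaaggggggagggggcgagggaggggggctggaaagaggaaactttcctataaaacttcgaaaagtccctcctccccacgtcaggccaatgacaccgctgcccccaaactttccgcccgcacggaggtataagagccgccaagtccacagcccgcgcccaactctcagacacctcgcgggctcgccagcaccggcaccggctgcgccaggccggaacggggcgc

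The E-box CAGGTG, searched on both strands, occurred once among these windows, in Snai1, at 126 bases before the start. It occurs in 20.2% of the 32817 RefSeq mouse promoter windows of this length that were searched. The looser E-box CANNTG, which includes CAGGTG and is what Twist and E-protein dimers read, occurred in 72.3% of those windows but in none of the Prrx1, Twist2 and Twist1 windows. The Prrx1 window stood apart by composition: 47.7% GC with 6 CpG pairs, against 64.7% GC and 25 CpG pairs for Twist2, 70.0% and 34 for Snai1, and 66.0% and 27 for Twist1. The median window had 52.7% GC and 7 CpG pairs. Of 3 further motifs searched on both strands, Prrx1 held none. The TATA motif TATAAA, found in 13.6% of windows, was present in Twist1 alone among the 4. The CCAAT motif, found in 37.4%, was present in Twist2, Snai1 and Twist1. The GC-box core GGGCGG, found in 35.6%, had 4 copies in Twist2 and 1 in Twist1. These matches are descriptions of letters, not of bound sites. Off chromosome 18, where Zeb1 and Tcf4 lie and no window was taken, an entry was matched for 5 of the 10 factors, the fifth being Zeb2, whose 4 alternative windows held no CANNTG.

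Prrx1 (ENSMUSG00000026586.16, chromosome 1, 163245119 to 163313710 on the minus strand, GRCm38), a paired-type homeobox factor of limb and craniofacial mesenchyme that induces the transition in human breast cancer cells, rose more than any other abundant factor of the set. Libraries of shMed4 #4 held 540, 496 and 596 Prrx1 reads, those of shMed4 #1 held 369, 417 and 428, and those of NTC held 73, 82 and 48. All 3 groups were separate, with every shMed4 #4 library above every shMed4 #1 library and both far above NTC. The mean was 66.8 ± 5.8 CPM in shMed4 #4 cells, 48.6 ± 2.4 CPM in shMed4 #1 cells and 8.52 ± 2.4 CPM in NTC cells (SD, n = 3 each). The fold was 7.86 with shMed4 #4 (95% interval 6.71 to 9.21, edgeR adjusted p = 3.84e-23) and 5.72 with shMed4 #1 (95% interval 4.85 to 6.75, edgeR adjusted p = 7.4e-20). Only 1.18% of tested genes moved as far or further in either direction with shMed4 #4, and 0.837% with shMed4 #1.

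The 2 hairpins differed in how far they raised Prrx1. It was 1.37-fold higher with shMed4 #4 than with shMed4 #1 (95% interval 1.22 to 1.54, edgeR adjusted p = 4.06e-05), the sole factor of the 10 to pass this comparison. Among all tested genes, 14.2% were higher and 13.9% lower with shMed4 #4 than with shMed4 #1. Med4 itself was 1.59-fold higher with shMed4 #4 than with shMed4 #1 (95% interval 1.24 to 2.04, edgeR adjusted p = 0.00401), so the hairpin with more Med4 left was the one with more Prrx1.

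Prrx1 shares no exon base with another annotated gene. The median log2 fold change of the 50 tested genes nearest to it on the chromosome was 0.0046 with shMed4 #4 and -0.014 with shMed4 #1. Prrx2, the closest relative of Prrx1, had 510, 414 and 447 reads in shMed4 #4 libraries, 389, 398 and 421 in shMed4 #1 libraries, and 348, 352 and 408 in NTC libraries. Per length, Prrx2 stood at 28.6 ± 2.8 RPKM in shMed4 #4 cells, 24.7 ± 0.15 RPKM in shMed4 #1 cells and 23.6 ± 1.8 RPKM in NTC cells. Its log2 fold change was 0.28 with shMed4 #4 (edgeR adjusted p = 0.00203) and 0.06 with shMed4 #1 (edgeR adjusted p = 0.537). Prrx1 is also a gene of fibroblasts, and markers of that lineage moved both ways. Of 10 listed, 5 were tested. Col1a1 and Col1a2 rose with Prrx1, and Pdgfra and Pdgfrb, the largest terms of the summed level, fell, each with both hairpins. The sum over all 10 was 231 to 250 CPM in shMed4 #4 libraries, 239 to 255 CPM in shMed4 #1 libraries and 265 to 298 CPM in NTC libraries, and the part of fibroblast-like expression in the Prrx1 rise was not tested.

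The genes whose log2 CPM followed Prrx1 most closely over the 9 libraries were P3h4 (Pearson r = 0.997), Xiap (r = 0.995) and Ube2q2 (r = 0.995), out of 10092 genes compared. P3h4 is a collagen-modifying endoplasmic reticulum protein, Xiap an inhibitor of caspases, and Ube2q2 a ubiquitin-conjugating enzyme. P3h4 had a range like that of Prrx1, at 46.9 ± 1.85 CPM in shMed4 #4 cells, 32.6 ± 0.52 CPM in shMed4 #1 cells and 4.45 ± 1.19 CPM in NTC cells. Such values over 3 groups of 3 libraries mostly restate the group order, and they are given as a description.

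**Figure D3:**
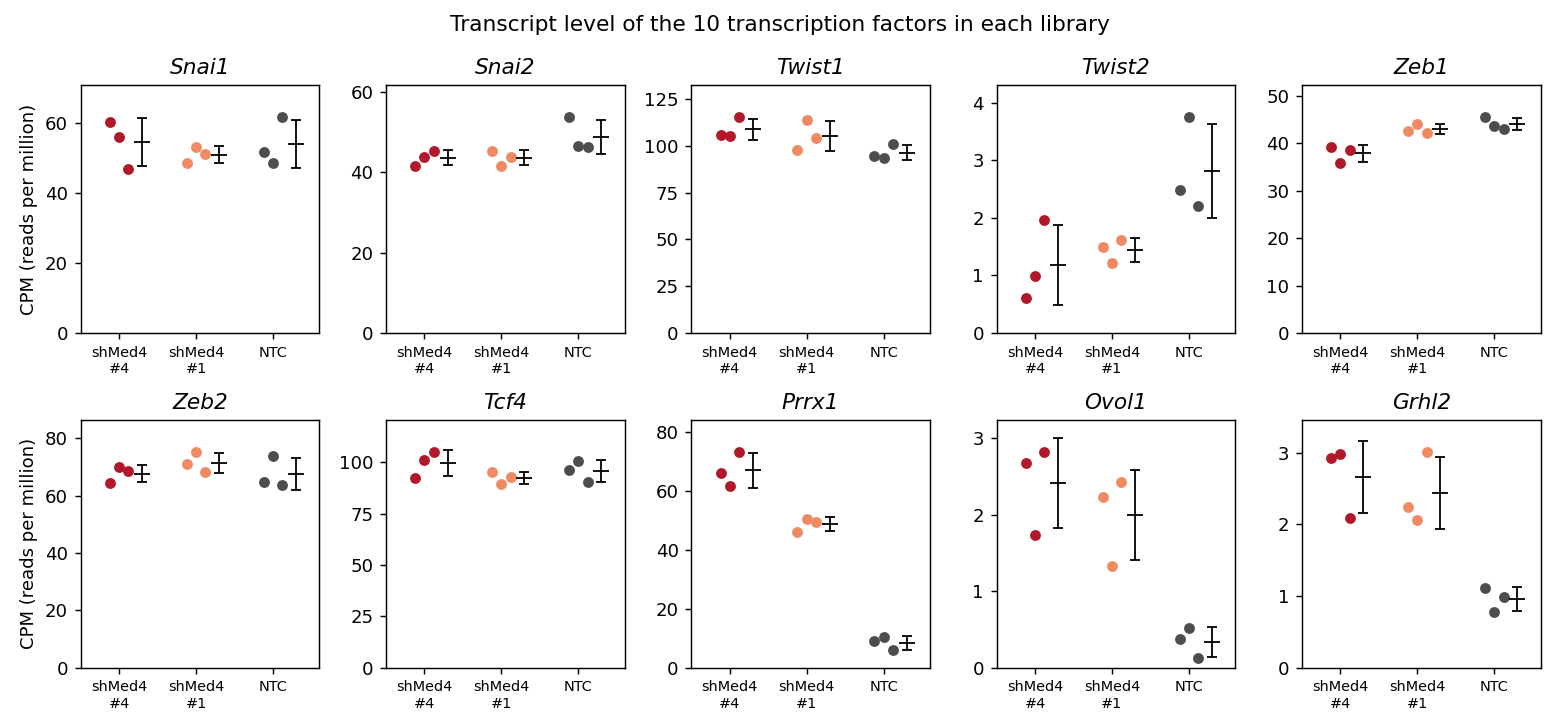
CPM of each factor (y axes start at 0) in the 3 libraries of shMed4 #4, shMed4 #1 and NTC; small offset marks are means with SD. Prrx1, Ovol1 and Grhl2 libraries of both knockdown groups lie above all NTC libraries and Twist2 libraries below them, and the other panels are nearly level.

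The epithelial guardians Ovol1 and Grhl2 also rose with both hairpins, from a very low base. Neither reached the filter level of 1.21 CPM in any NTC library, so both were tested only because of the knockdown libraries, and their passing is not independent of the rise. Ovol1 (ENSMUSG00000024922.2, chromosome 19, 5549136 to 5560646), a zinc-finger repressor of Zeb1 in epithelia, had 22, 14 and 23 reads in shMed4 #4 libraries, 18, 11 and 21 in shMed4 #1 libraries, and 3, 4 and 1 in NTC libraries. The knockdown libraries overlapped each other and lay wholly above NTC. The log2 fold change was 2.80 with shMed4 #4 (95% interval 1.87 to 3.73, edgeR adjusted p = 2.71e-06) and 2.53 with shMed4 #1 (95% interval 1.56 to 3.50, edgeR adjusted p = 4.46e-05). Only 8 reads were counted over the NTC group. Between shMed4 #4 and shMed4 #1 no difference was detectable at this depth, with a fold of 1.20 (95% interval 0.785 to 1.85).

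The reads of Ovol1 carry a reservation. Of its exon sequence, 19.8% is shared with Gm31166 on the other strand, and whether reads were counted by strand is not given in the sources used here. Gm31166 had 12, 10 and 21 reads in shMed4 #4 libraries, 22, 17 and 15 in shMed4 #1 libraries, and 6, 3 and 4 in NTC libraries. Like Ovol1 it was below the filter level in every NTC library. It rose too, by a log2 fold change of 1.67 with shMed4 #4 (edgeR adjusted p = 0.00154) and 1.97 with shMed4 #1 (edgeR adjusted p = 0.000231), and reads of the 2 genes cannot be told apart over the shared exons. Of the other Ovol genes, Ovol2 had no read in any library, and Ovol3 had 3 reads in all. The genes most like Ovol1 over the 9 libraries were Plekha1, Cep57 and Pde4a, with r between 0.975 and 0.978.

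Grhl2 (ENSMUSG00000022286.16, chromosome 15, 37233036 to 37363569), a Grainyhead-like factor that activates E-cadherin and represses Zeb1, had 24, 24 and 17 reads in shMed4 #4 libraries, 18, 17 and 26 in shMed4 #1 libraries, and 9, 6 and 8 in NTC libraries. Again the knockdown groups overlapped each other and not NTC. The fold was 2.74 with shMed4 #4 (95% interval 1.71 to 4.40, edgeR adjusted p = 0.000372) and 2.52 with shMed4 #1 (95% interval 1.56 to 4.07, edgeR adjusted p = 0.00175). Its 50 nearest tested genes had a median log2 fold change of 0.20 with shMed4 #4 and 0.24 with shMed4 #1. Whether the region had a part in the Grhl2 rise was not tested. Per length, Grhl2 averaged 0.309 ± 0.058 RPKM in shMed4 #4 cells, 0.283 ± 0.059 RPKM in shMed4 #1 cells and 0.111 ± 0.020 RPKM in NTC cells. Its relative Grhl1 averaged 0.659 ± 0.052 RPKM in shMed4 #4 cells, 0.968 ± 0.12 RPKM in shMed4 #1 cells and 1.30 ± 0.093 RPKM in NTC cells, above Grhl2 in every group.

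Grhl1 moved the other way. It had 28, 32 and 29 reads in shMed4 #4 libraries, 37, 49 and 48 in shMed4 #1 libraries, and 60, 51 and 61 in NTC libraries. The groups were ordered without overlap, and the log2 fold change was -0.98 with shMed4 #4 (edgeR adjusted p = 4.66e-05) and -0.42 with shMed4 #1, which missed the threshold (edgeR adjusted p = 0.0542). Grhl3 had 1 read in all. The genes most like Grhl2 were Plxnb1, Tspan9 and Gtse1, with r between 0.975 and 0.982.

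Many epithelial genes had few or no reads in any group. Cdh1, which Grhl2 activates and the Snail, Zeb and Twist factors repress, had no read in any library, where 3 reads in a library would stand at 0.347 to 0.387 CPM. Of the 36 epithelial effector genes listed, 14 were tested, 3 had no read in the 9 libraries, and 15 had at most 10 reads in all. The 3 without a read, named after their values were seen, were Cdh1, Cldn4, a tight-junction claudin, and Esrp1, the epithelial splicing regulator.

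Twist2 (ENSMUSG00000007805.4, chromosome 1, 91801461 to 91848028), a basic helix-loop-helix relative of Twist1, was the factor of the set that fell with both hairpins. It had 5, 8 and 16 reads in shMed4 #4 libraries, 12, 10 and 14 in shMed4 #1 libraries, and 20, 29 and 18 in NTC libraries. Every knockdown library was below every NTC library, and only 1 of the 3 shMed4 #4 libraries reached the filter level of 1.21 CPM. The fold was 0.427 with shMed4 #4 (95% interval 0.263 to 0.693, edgeR adjusted p = 0.00271) and 0.517 with shMed4 #1 (95% interval 0.326 to 0.820, edgeR adjusted p = 0.0184). The call with shMed4 #1 was lost without NTC replicate 2 (edgeR adjusted p = 0.149), without shMed4 #1 replicate 2 (edgeR adjusted p = 0.0711) and in DESeq2 (adjusted p = 0.0696).

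Twist2 shares 46.5% of its exon bases with Gm29100, annotated antisense to it. Gm29100 had 15, 10 and 16 reads in shMed4 #4 libraries, 10, 15 and 22 in shMed4 #1 libraries, and 32, 25 and 27 in NTC libraries. It fell by a log2 fold change close to that of Twist2, -1.06 with shMed4 #4 (edgeR adjusted p = 0.00201) and -0.89 with shMed4 #1 (edgeR adjusted p = 0.00916). Which of the 2 genes the lost reads belong to cannot be told apart where the use of strand in counting is unknown.

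Twist1 (ENSMUSG00000035799.6, chromosome 12, 33957671 to 33959829), the most abundant driver, had 868, 846 and 940 reads in shMed4 #4 libraries, 785, 940 and 900 in shMed4 #1 libraries, and 760, 723 and 824 in NTC libraries. It was 1.13-fold higher with shMed4 #4 (95% interval 1.03 to 1.23, edgeR adjusted p = 0.0164), with no overlap with NTC in CPM. With shMed4 #1 the fold was 1.09 (95% interval 1.00 to 1.19, edgeR adjusted p = 0.102). The rise with shMed4 #4 did not pass without NTC replicate 1 (edgeR adjusted p = 0.0566), NTC replicate 2 (0.0741) or shMed4 #4 replicate 3 (0.0989), nor with upper-quartile scaling (0.0756). Without shMed4 #1 replicate 1, the rise with shMed4 #1 passed (edgeR adjusted p = 0.0239). With shMed4 #4, then, Twist1 rose slightly while Twist2 fell.

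Snai1 (ENSMUSG00000042821.7, chromosome 2, 167538195 to 167542814), the Snail factor that starts many forms of the transition, was level. It had 496, 453 and 384 reads in shMed4 #4 libraries, 392, 441 and 442 in shMed4 #1 libraries, and 416, 376 and 503 in NTC libraries, with all groups overlapping. Its fold was 1.01 with shMed4 #4 (95% interval 0.899 to 1.14) and 0.945 with shMed4 #1 (95% interval 0.840 to 1.06), so a change beyond these limits was not seen.

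Snai2 (ENSMUSG00000022676.7, chromosome 16, 14705852 to 14709385), the Slug factor of basal mammary cells, had 341, 353 and 369 reads in shMed4 #4 libraries, 364, 344 and 379 in shMed4 #1 libraries, and 431, 359 and 377 in NTC libraries. Scaled to CPM, neither knockdown group overlapped NTC. The fold was 0.893 with each hairpin (95% interval 0.803 to 0.994) and missed the threshold, with an edgeR adjusted p of 0.0679 for shMed4 #4 and 0.0841 for shMed4 #1. With upper-quartile scaling, both passed (edgeR adjusted p = 0.0201 for shMed4 #4 and 0.0393 for shMed4 #1), and without NTC replicate 3 the fall with shMed4 #4 passed (edgeR adjusted p = 0.0447). Snai3, the remaining Snail gene, had no read in any library.

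The Zeb factors are zinc-finger homeodomain repressors that act late in the transition and are held down by miR-200 in epithelia. Zeb1 (ENSMUSG00000024238.15, chromosome 18) had 321, 289 and 315 reads in shMed4 #4 libraries, 343, 365 and 365 in shMed4 #1 libraries, and 366, 339 and 351 in NTC libraries. With shMed4 #4 it was below NTC without overlap in CPM, at a fold of 0.859 (95% interval 0.773 to 0.954, edgeR adjusted p = 0.013). With shMed4 #1 the fold was 0.974 (95% interval 0.879 to 1.08, edgeR adjusted p = 0.722). The difference between hairpins was a fold of 0.881 (95% interval 0.793 to 0.979), which missed the threshold (edgeR adjusted p = 0.066). The fall with shMed4 #4 did not pass without shMed4 #4 replicate 2 (edgeR adjusted p = 0.0869), without NTC replicate 1 (0.0516) or with no low-count filter (0.0501), and the difference between hairpins passed with upper-quartile scaling (0.0459).

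Zeb2 (ENSMUSG00000026872.18, chromosome 2, 44983632 to 45117395) had 527, 563 and 559 reads in shMed4 #4 libraries, 572, 621 and 589 in shMed4 #1 libraries, and 519, 571 and 519 in NTC libraries. The groups overlapped in CPM. Its fold was 1.00 with shMed4 #4 (95% interval 0.913 to 1.10) and 1.06 with shMed4 #1 (95% interval 0.966 to 1.17). Zeb2 shares 3.27% of its exon bases with the antisense Zeb2os, which had 38 reads in shMed4 #4 cells, 57 in shMed4 #1 cells and 35 in NTC cells.

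Tcf4 (ENSMUSG00000053477.17, chromosome 18), the E protein also called E2-2 that pairs with Twist factors, had 758, 813 and 856 reads in shMed4 #4 libraries, 765, 737 and 800 in shMed4 #1 libraries, and 774, 778 and 735 in NTC libraries. All groups overlapped, with folds of 1.04 for shMed4 #4 (95% interval 0.955 to 1.13) and 0.965 for shMed4 #1 (95% interval 0.885 to 1.05). Among the 6 other E proteins and Id inhibitors, 2 rose and 2 fell with shMed4 #4, and 2 rose and 3 fell with shMed4 #1. The E protein Tcf12 rose slightly, by a log2 fold change of 0.25 with shMed4 #4 (edgeR adjusted p = 0.000198) and 0.13 with shMed4 #1 (edgeR adjusted p = 0.049). The Id proteins bind E proteins and keep them off DNA. Id1 fell by 0.63 on the log2 scale with shMed4 #4 and by 0.31 with shMed4 #1, and Id2 fell by 0.54 with shMed4 #4 and by 0.32 with shMed4 #1. The Id genes went both ways, as Id3 rose by 0.37 with shMed4 #1 and Id4 by 0.37 with shMed4 #4. These last 2 were named after their values were seen, and neither passed with the other hairpin.

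Beyond the factors themselves, mesenchymal and epithelial effector genes each moved in both directions. The counts in this and the following lists stand beside 27.8% of all tested genes higher and 27.3% lower with shMed4 #4, and 21.8% higher and 19.8% lower with shMed4 #1. Of 23 tested mesenchymal effectors out of 27 listed, 12 rose and 8 fell with shMed4 #4, and the counts with shMed4 #1 were also 12 and 8. Their median log2 fold change was 0.24 with shMed4 #4 and 0.30 with shMed4 #1, where the median of all tested genes was -0.013 with shMed4 #4 and -0.0076 with shMed4 #1. Among those that rose with both hairpins, Mmp2, named after its values were seen, had 10 reads over the NTC group. Mmp2 reached the filter level of 1.21 CPM in no NTC library. It was tested only through the knockdown libraries, so its passing is not independent of the rise. The smooth-muscle actin Acta2 averaged 1000 ± 90 CPM in shMed4 #4 cells, 708 ± 20 CPM in shMed4 #1 cells and 212 ± 12 CPM in NTC cells. The fibrillar collagen Col1a1 averaged 51.5 ± 2.4 CPM in shMed4 #4 cells, 46.4 ± 4.0 CPM in shMed4 #1 cells and 15.5 ± 1.1 CPM in NTC cells. The integrin subunit Itgb1 stood at 1810 ± 14 CPM in shMed4 #4 cells, 1630 ± 45 CPM in shMed4 #1 cells and 985 ± 47 CPM in NTC cells.

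The mesenchymal cadherin Cdh11 went the other way, at 4.10 ± 0.91 CPM in shMed4 #4 cells, 12.8 ± 0.39 CPM in shMed4 #1 cells and 42.7 ± 3.4 CPM in NTC cells. The other cadherin of this list, Cdh2, named after its values were seen, was too low to be tested. It had 41 reads over the shMed4 #4 group, 9 over the shMed4 #1 group and 7 over the NTC group. Vim, which encodes the intermediate filament vimentin and was named after its values were seen, fell by 0.82 on the log2 scale with shMed4 #4 (edgeR adjusted p = 5.35e-17) and by 0.38 with shMed4 #1 (edgeR adjusted p = 5.9e-08). Collagen genes were divided: Col5a1, named after its values were seen, fell by 0.41 with shMed4 #4 (edgeR adjusted p = 1.11e-08) and by 0.23 with shMed4 #1 (edgeR adjusted p = 0.000399). Acta2, Col1a1 and Itgb1 thus rose while Cdh11, Vim and Col5a1 fell.

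**Figure D4:**
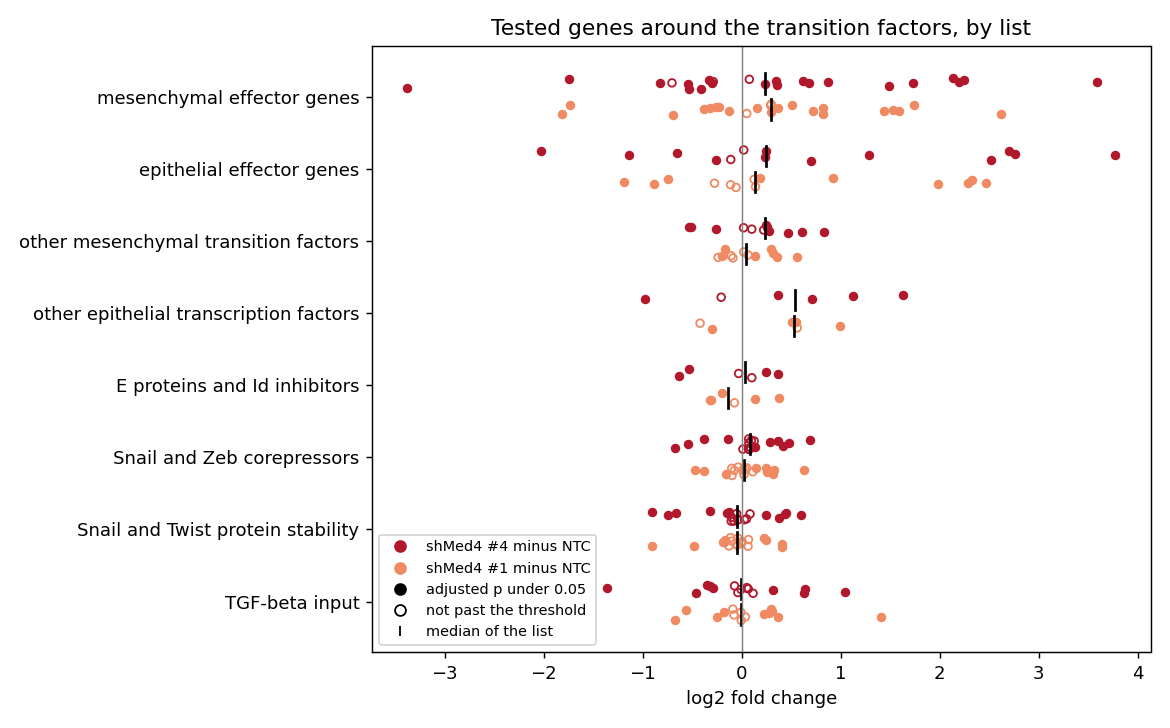
Log2 fold change (x axis) of each tested gene in 8 lists (rows) with shMed4 #4 and shMed4 #1 relative to NTC; filled points passed an edgeR adjusted p of 0.05 and black ticks are list medians. Effector genes spread from -3.38 (Cdh11) to 3.77 (Krt8), both with shMed4 #4, while corepressors, stability factors and E proteins stay within 1 of 0.

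Of the 14 tested epithelial effectors, 8 rose and 4 fell with shMed4 #4, and 6 rose and 3 fell with shMed4 #1, with medians of 0.24 with shMed4 #4 and 0.13 with shMed4 #1. The 4 with the smallest adjusted p over both hairpins were Pkp1, Jup, Krt8 and Krt18, all of which rose. The 3 that fell with both, named after their values were seen, were Lsr, Llgl2 and Esrp2 (edgeR adjusted p no larger than 0.00135). With shMed4 #4 their log2 fold changes were -2.03 for Lsr, -1.14 for Llgl2 and -0.65 for Esrp2. With shMed4 #1 they were -1.18 for Lsr, -0.88 for Llgl2 and -0.74 for Esrp2. Tjp1 fell with shMed4 #4 only (-0.255, edgeR adjusted p = 0.000106). The desmosomal plaque protein Pkp1 averaged 64.9 ± 3.6 CPM in shMed4 #4 cells, 53.1 ± 3.9 CPM in shMed4 #1 cells and 9.54 ± 1.8 CPM in NTC cells. Plakoglobin, encoded by Jup, averaged 56.2 ± 3.5 CPM in shMed4 #4 cells, 49.3 ± 1.0 CPM in shMed4 #1 cells and 9.77 ± 0.70 CPM in NTC cells. Both proteins tie desmosomal cadherins to keratin filaments. Other desmosomal genes of the list, named after their values were seen, were too low to be tested. The cadherins Dsc2 and Dsg2 had at most 3 reads in any group. Desmoplakin, encoded by Dsp, had 14 reads over the shMed4 #4 group, 5 over the shMed4 #1 group and 4 over the NTC group. Other plakophilins, named after their values were seen, moved less: Pkp2 rose by 0.24 on the log2 scale with shMed4 #4 and by 0.18 with shMed4 #1, and Pkp3 did not pass with either hairpin (edgeR adjusted p = 0.967 with shMed4 #4 and 0.846 with shMed4 #1). Krt8 averaged 53.9 ± 3.3 CPM in shMed4 #4 cells, 19.2 ± 0.49 CPM in shMed4 #1 cells and 3.93 ± 0.41 CPM in NTC cells. Its partner Krt18 averaged 133 ± 9.9 CPM in shMed4 #4 cells, 80.8 ± 8.8 CPM in shMed4 #1 cells and 20.4 ± 0.71 CPM in NTC cells. Both keratins were higher with shMed4 #4 than with shMed4 #1, as Prrx1 was, with log2 differences of 1.49 for Krt8 (edgeR adjusted p = 2.34e-16) and 0.72 for Krt18 (edgeR adjusted p = 5.52e-11).

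Other epithelial transcription factors were tested for 6 of 12 listed genes, of which 4 rose and 1 fell with shMed4 #4, and 3 rose and 1 fell with shMed4 #1. Their median was 0.54 with shMed4 #4 and 0.53 with shMed4 #1. Klf4, a zinc-finger factor of epithelial identity, rose by 0.71 on the log2 scale with shMed4 #4 and by 0.55 with shMed4 #1. The luminal factor Gata3 rose by 1.63 with shMed4 #4 and by 0.99 with shMed4 #1, from 21 reads over the NTC group, and the Ets factor Elf3 by 0.37 with shMed4 #4 and by 0.51 with shMed4 #1. Each passed with both hairpins, with edgeR adjusted p no larger than 0.0368. Gata3 reached the filter level of 1.21 CPM in no NTC library and was tested only through the knockdown libraries.

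Other mesenchymal transition factors were tested for 12 of 18 listed genes. With shMed4 #4, 6 rose and 3 fell, and with shMed4 #1, 5 rose and 2 fell, with medians of 0.23 with shMed4 #4 and 0.04 with shMed4 #1. Apart from Tcf12, which also stands in this list, Sox9 rose by 0.61 on the log2 scale with shMed4 #4 and by 0.36 with shMed4 #1, the AP-1 subunit Fosl1 by 0.46 with shMed4 #4 and by 0.56 with shMed4 #1, and the Ets factor Etv4 by 0.83 with shMed4 #4 and by 0.32 with shMed4 #1. None of these shifts approached that of Prrx1.

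The partners through which Snail and Zeb factors repress were all expressed. Of 18 corepressor genes, 6 rose and 4 fell with shMed4 #4, against 27.8% higher and 27.3% lower over all tested genes, and 6 rose and 3 fell with shMed4 #1, against 21.8% higher and 19.8% lower over all tested genes, with medians of 0.08 with shMed4 #4 and 0.03 with shMed4 #1. The Zeb corepressor Ctbp2 rose by 0.48 on the log2 scale with shMed4 #4 and by 0.32 with shMed4 #1, the LIM protein Limd1 by 0.69 with shMed4 #4 and by 0.32 with shMed4 #1, and the DNA methyltransferase Dnmt1 by 0.29 with shMed4 #4 and by 0.25 with shMed4 #1. The LIM protein Ajuba, a Snail corepressor, fell by 0.67 with shMed4 #4 and by 0.47 with shMed4 #1.

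Snail and Twist proteins are short-lived, so enzymes that control their turnover were counted as well. Of 19 such genes, 5 rose and 6 fell with shMed4 #4, against 27.8% higher and 27.3% lower over all tested genes, and 4 rose and 4 fell with shMed4 #1, against 21.8% higher and 19.8% lower over all tested genes, with medians of -0.051 with shMed4 #4 and -0.043 with shMed4 #1. The kinase Gsk3b, which marks Snail for degradation, rose by 0.38 on the log2 scale with shMed4 #4 and by 0.41 with shMed4 #1. The F-box protein Fbxl14 rose by 0.60 with shMed4 #4 and by 0.41 with shMed4 #1. The phosphatase Ctdsp2 fell by 0.74 with shMed4 #4 and by 0.49 with shMed4 #1, and the ubiquitin ligase Siah1a fell by 0.91 with each. Protein levels were not measured.

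TGF-beta, a classical inducer of these factors, was covered by 15 genes, all tested. With shMed4 #4, 4 rose and 5 fell, and with shMed4 #1, 6 rose and 4 fell, with medians of -0.0065 with shMed4 #4 and -0.0046 with shMed4 #1. The ligand Tgfb2 rose by 1.04 on the log2 scale with shMed4 #4 and by 1.41 with shMed4 #1. The inhibitory Smad7, itself a target of the pathway, fell by 0.46 with shMed4 #4 and by 0.57 with shMed4 #1. Of the latent TGF-beta binding proteins, Ltbp1 rose by 0.64 with shMed4 #4 and by 0.31 with shMed4 #1 while Ltbp2 fell by 1.36 with shMed4 #4 and by 0.68 with shMed4 #1.

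Markers of leukocytes and endothelium were low in every group. Leukocyte markers summed to 15.4 to 17.6 CPM in shMed4 #4 libraries, 14.9 to 15.9 CPM in shMed4 #1 libraries and 17.2 to 23.2 CPM in NTC libraries, over 10 genes of which Cd3e had no read. Of the 3 tested, none rose, 1 fell with shMed4 #4 and 2 fell with shMed4 #1, Lyz2 with both. The largest term of the leukocyte sum in every group was Csf1r, named after its values were seen. It averaged 10.9 ± 0.61 CPM in shMed4 #4 cells, 10.2 ± 0.95 CPM in shMed4 #1 cells and 10.4 ± 0.14 CPM in NTC cells, and passed with neither hairpin. Endothelial markers summed to 2.07 to 3.23 CPM in shMed4 #4 libraries, 2.73 to 4.40 CPM in shMed4 #1 libraries and 1.42 to 2.11 CPM in NTC libraries, with Tie1, Emcn and Cldn5 at 0, and the single one tested, Cdh5, rose with both hairpins but was below the filter level of 1.21 CPM in every NTC library, so it was tested only through the knockdown libraries. Of 5 tested fibroblast markers, 2 rose (Col1a1 and Col1a2) and 2 fell (Pdgfra and Pdgfrb) with both hairpins. Of 4 tested mammary markers, Krt8, Krt18 and Gata3 rose with both, and Erbb2, named after its values were seen, fell with shMed4 #1 (edgeR adjusted p = 0.0124) and did not pass with shMed4 #4 (edgeR adjusted p = 0.269). Their part in the changes of the transition factors was not tested.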

How the data were processed

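Total RNA of 9 libraries was read on the BGISEQ-500 platform, per the labels' protocols. Per the submitters' processing notes, the authors used STAR and HTSeq with the build mm10 (GRCm38). Versions, annotation release and the use of strand were not given in the sources used here. The deposited values are raw read counts per gene. Reads that HTSeq assigned to no feature, which need not lie outside genes, took 49.5 to 51.6% of each file's records. Those in several places took 10.5 to 11.6% and ambiguous ones 0.863 to 0.951%. All of these summary lines were left out. Without molecular identifiers, intervals cover counting and library spread only.

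Symbols, coordinates and exon overlaps came from GENCODE M21 on GRCm38. Genes were kept with filterByExpr (minimum count 10, here 1.21 CPM), scaled by TMM (factors 0.969 to 1.03) and fitted in edgeR 4.0.16 under R 4.3.3 by quasi-likelihood, all 9 libraries in 1 model of 3 groups, with Benjamini-Hochberg adjustment over 14335 genes. Fold changes were taken as hairpin over NTC and shMed4 #4 over shMed4 #1. The steps were tested on simulated counts. Libraries of 1 group differed by more than sampling noise, with a chi-square of 1.53 to 2.95 per degree of freedom, so none was counted as a duplicate.

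The factors and lists were chosen with earlier results of these data known. The text names every factor, Med4 and, per list, up to 4 genes that passed with both hairpins in 1 direction with a mean of at least 1 CPM, smallest p first, and for factors changed 2-fold with both, the 3 genes of at least 5 CPM correlating most with each. Genes that share symbols with a factor's family, overlap its exons or were picked after their values were seen are named besides. Alternatives were edgeR with upper-quartile factors or with the size factors of DESeq2, the Wald test of DESeq2 1.42.0, voom in limma 3.58.1, other count filters, fits of the compared libraries only, the replicate number as a block, an adjusted p of 0.01 and leaving out each library.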

Additional observations from a re-analysis of the deposited data

Results flagged for a closer look

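Prrx1 was singled out because the effects of the 2 hairpins on it differed by a direct test. The log2 difference between shMed4 #4 and shMed4 #1 was 0.46 (SE 0.08, edgeR adjusted p = 4.06e-05), with 65.9, 61.6 and 73.1 CPM in shMed4 #4 libraries against 45.9, 50.5 and 49.5 CPM in shMed4 #1 libraries. It passed in every alternative tried, with adjusted p from 1.82e-08 to 0.00124 and log2 differences from 0.39 to 0.52.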

How the results depend on the processing

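The rises of Prrx1, Ovol1 and Grhl2 with both hairpins and the fall of Twist2 with shMed4 #4 kept their direction and passed in all 17 alternatives of the processing, the omission of each library included. Of all values for single factors under an alternative, 474 kept direction and side of the threshold, 10 lost their call, 5 gained one and 21 changed sign, all of the last for values that did not pass before or after. The difference of Snai2 between hairpins turned to 0.0040 with DESeq2 size factors, 0.0040 in DESeq2, 0.0096 with no filter and 0.00072 with a filter of 1 CPM in 3 libraries, and ranged from -0.031 to 0.039 with 1 library left out. The shMed4 #4 effect turned to -0.031 for Snai1 and to -0.039 for Zeb2 with upper-quartile factors, and with 1 library left out it ranged from -0.058 to 0.12 for Snai1 and from -0.032 to 0.076 for Zeb2. With 1 library left out, the shMed4 #1 effect on Snai1 ranged from -0.15 to 0.025, and the difference of Twist2 between hairpins from -0.83 to 0.044. Between hairpins, 2 factors passed with upper-quartile factors. In the main fit, 2573 genes passed between hairpins at an adjusted p under 0.01, against 4017 under 0.05, which follows from the stricter threshold alone. The cause of the other shifts was not tested. Upper-quartile factors put 43.9% of calls with shMed4 #4 and 46.1% with shMed4 #1 on the higher side, against 50.5% with shMed4 #4 and 52.5% with shMed4 #1 in the main setting.

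Same-numbered libraries did not deviate together (correlations from -0.052 to 0.033 over 9 pairs), so no pairing by number was detectable. A weak pairing could go unseen with 3 libraries a group. With the replicate block, 6 factors passed with shMed4 #4, 4 with shMed4 #1 and 1 between hairpins, as did 7807 genes with shMed4 #4, 5828 with shMed4 #1 and 3859 between hairpins. Depth limits Ovol1, Grhl2 and Twist2, which rest on at most 29 reads a library.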
